A study of Mus musculus with 20 samples.

Results

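Transcripts of neutrophils and red blood cells were followed in RNA from mouse sensory ganglia. The set holds 30 genes of the 55416 counted, named by symbol, of which 16 mark neutrophils and 14 mark the red cell lineage, and all 30 matched a counted gene. The series comprises 20 polyA libraries of lumbar dorsal root ganglia (L3 to L5), which house the cell bodies of sensory neurons, from 10 adult C57Bl6 mice that gave 2 libraries each, 1 after formalin and 1 noninjected. All 10 animals carried floxed Prdm12 alleles (P12 Fl/Fl) and received tamoxifen 1 month before collection, and by the labels the 5 icKO animals (inducible conditional knockout) also carried a tamoxifen-inducible Cre recombinase, which the genotype of the 5 controls does not name. The labelled controls were 2 females and 3 males, the labelled icKO animals 3 females and 2 males. The animals' characteristics give that Cre as AdvCreERT2, which advillin drives in sensory neurons, and the series text gives Rosa26CreERT2, which is active in most cell types. The formalin library of icKO 1 held 2829 counts and was left out, which leaves 5, 5, 5 and 4 libraries in the groups control noninjected, control formalin, icKO noninjected and icKO formalin, with 11763893 to 22392635 counts each. Where and when formalin was injected is not stated in the labels.

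Sample titles and deposited file names disagree on the genotype of control 1, control 4, icKO 2 and icKO 3. Prdm12, the targeted gene and a transcription factor gene of pain-sensing neurons, ran from 76.92 to 104.9 CPM (TMM-scaled counts per 1e+06) in the 6 control libraries of animals whose records agree and from 14.43 to 23.27 CPM in their 5 icKO libraries. In the animals with differing records it ran from 23.26 to 38.88 CPM in libraries labelled control and from 73.18 to 112.4 CPM in those labelled icKO, against their labels. Genotype is therefore given for the 6 agreeing animals (control 2, 3 and 5 against icKO 1, 4 and 5), for all animals as labelled, and for all animals by deposited name.

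Neutrophils are short-lived white cells made in bone marrow. Their precursors there fill granules in a fixed order: myeloperoxidase and the serine proteases of primary granules first (Mpo, Elane, Prtn3, Ctsg), then the antimicrobial proteins of secondary and tertiary granules (Ngp, Camp, Ltf, Lcn2, Chil3, Mmp8), and mature cells, which carry S100a8 and S100a9 in bulk, have largely shut off the first set. Red cells lose their nucleus in the marrow: nucleated precursors use the transcription factors GATA1 and KLF1, while the young red cells in blood keep globin mRNA but make little new transcript. Blood therefore carries mostly mature-cell transcripts and marrow carries both kinds, and dorsal root ganglia are dissected from inside the vertebrae, which contain marrow.

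Upstream sequences are shown for genes of each stage, since the members vary together and the factors named above act through short motifs. RefSeq (GRCm38.p6) start sites gave 250 bases before the start for 26 of the 30 members, and Mmp9, Slc4a1, Fech and Car2 had no entry. Capitals mark, on either strand, GATAAG (for GATA factors) or CCNCNCCC (the CACC box, for KLF1) in red cell genes, and TTGCNNAA (for C/EBP factors) or GAGGAA (for PU.1) in neutrophil genes. The sequences are those of Hba-a1 (chr11:32283422-32283671, plus strand), Hbb-bs (chr7:103827929-103828178, minus strand), Klf1 (chr8:84901732-84901981, plus strand), Elane (chr10:79886062-79886311, plus strand), Ngp (chr9:110419558-110419807, plus strand) and S100a8 (chr3:90668821-90669070, plus strand).
Hba-a1: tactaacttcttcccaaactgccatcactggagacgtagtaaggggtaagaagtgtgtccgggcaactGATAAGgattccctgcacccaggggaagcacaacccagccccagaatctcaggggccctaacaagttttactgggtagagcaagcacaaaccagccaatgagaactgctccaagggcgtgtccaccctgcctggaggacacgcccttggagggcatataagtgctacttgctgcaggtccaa
Hbb-bs: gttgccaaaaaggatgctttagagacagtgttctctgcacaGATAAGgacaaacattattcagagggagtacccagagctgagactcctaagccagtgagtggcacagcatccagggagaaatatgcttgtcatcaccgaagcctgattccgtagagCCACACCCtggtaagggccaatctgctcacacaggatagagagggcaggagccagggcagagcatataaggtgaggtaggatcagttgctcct
Klf1: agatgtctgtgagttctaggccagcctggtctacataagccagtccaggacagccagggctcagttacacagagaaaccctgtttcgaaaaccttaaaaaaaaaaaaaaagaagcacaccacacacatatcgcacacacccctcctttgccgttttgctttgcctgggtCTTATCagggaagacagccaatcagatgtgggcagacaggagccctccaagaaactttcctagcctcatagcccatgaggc
Elane: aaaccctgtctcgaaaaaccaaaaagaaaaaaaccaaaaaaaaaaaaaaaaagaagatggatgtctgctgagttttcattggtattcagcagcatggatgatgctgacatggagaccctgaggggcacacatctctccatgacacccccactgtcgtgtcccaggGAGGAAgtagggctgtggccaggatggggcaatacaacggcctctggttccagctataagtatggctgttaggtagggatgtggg
Ngp: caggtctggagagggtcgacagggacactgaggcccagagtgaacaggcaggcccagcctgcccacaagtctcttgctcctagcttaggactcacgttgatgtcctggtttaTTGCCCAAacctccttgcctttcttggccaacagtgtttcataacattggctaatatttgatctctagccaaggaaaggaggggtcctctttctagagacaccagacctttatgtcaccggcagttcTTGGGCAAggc
S100a8: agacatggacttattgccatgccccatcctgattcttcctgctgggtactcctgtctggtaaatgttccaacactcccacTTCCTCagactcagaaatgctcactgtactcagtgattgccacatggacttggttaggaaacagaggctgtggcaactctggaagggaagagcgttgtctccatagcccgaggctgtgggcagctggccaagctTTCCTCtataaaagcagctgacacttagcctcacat
GATAAG was found upstream of 7 of 11 red cell members (all 4 globin genes, Klf1, Epb42 and Rhd) and of 0 of 15 neutrophil members, and it lies in 6.6% of all 27025 upstream windows of this length. These letters were chosen after the sequences were seen, and the other common spelling, AGATAA, was found in 4 of 11 and 3 of 15, against 10.3% of all windows. The CACC box was found in 5 of 11 red cell and 9 of 15 neutrophil members, and 45.6% of all windows hold it. TTGCNNAA was found in 6 of 15 neutrophil members and 1 of 11 red cell members, against 9.6% of windows, and GAGGAA in 10 of 15 and 5 of 11, against 23.1%. The alpha globin copies Hba-a1 and Hba-a2 did not differ at any of the 247 aligned bases of this window, and their longest coding transcripts differed at 1 of 538 aligned bases (99.8% identity), so their counts cannot be told apart with confidence. Hbb-bs and Hbb-bt, the adult beta globins of this strain, differed at 27 of 580 aligned bases (95.3% identity).

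All 30 members had counts in all 19 libraries. The lowest single count was 5, for Ctsg in the control 3 formalin library, followed by 8 for Gata1, 9 for Cxcr2 and 10 for Klf1. Per kilobase of exon, the median level over libraries was highest for S100a9 (312.4 CPM per kb), Hbb-bs (193.5) and S100a8 (155.5), and lowest for Epb42 (0.4426), Gata1 (0.4556) and Ermap (0.7896), and the precursor genes Elane and Klf1 stood at 6.024 and 1.261 CPM per kb. Fech (ferrochelatase, the last enzyme of haem synthesis), Car2 (carbonic anhydrase) and Bpgm (bisphosphoglycerate mutase), of which Fech and Car2 are also expressed outside the red cell lineage, varied least between libraries: the highest level was 1.524, 2.489 and 3.423 times the lowest. The other 27 members spanned 8.147-fold (Rhd) to 33.33-fold (Cxcr2). In a bulk library, fewer cells of a type and less RNA per cell cannot be told apart.

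**Figure D1:**
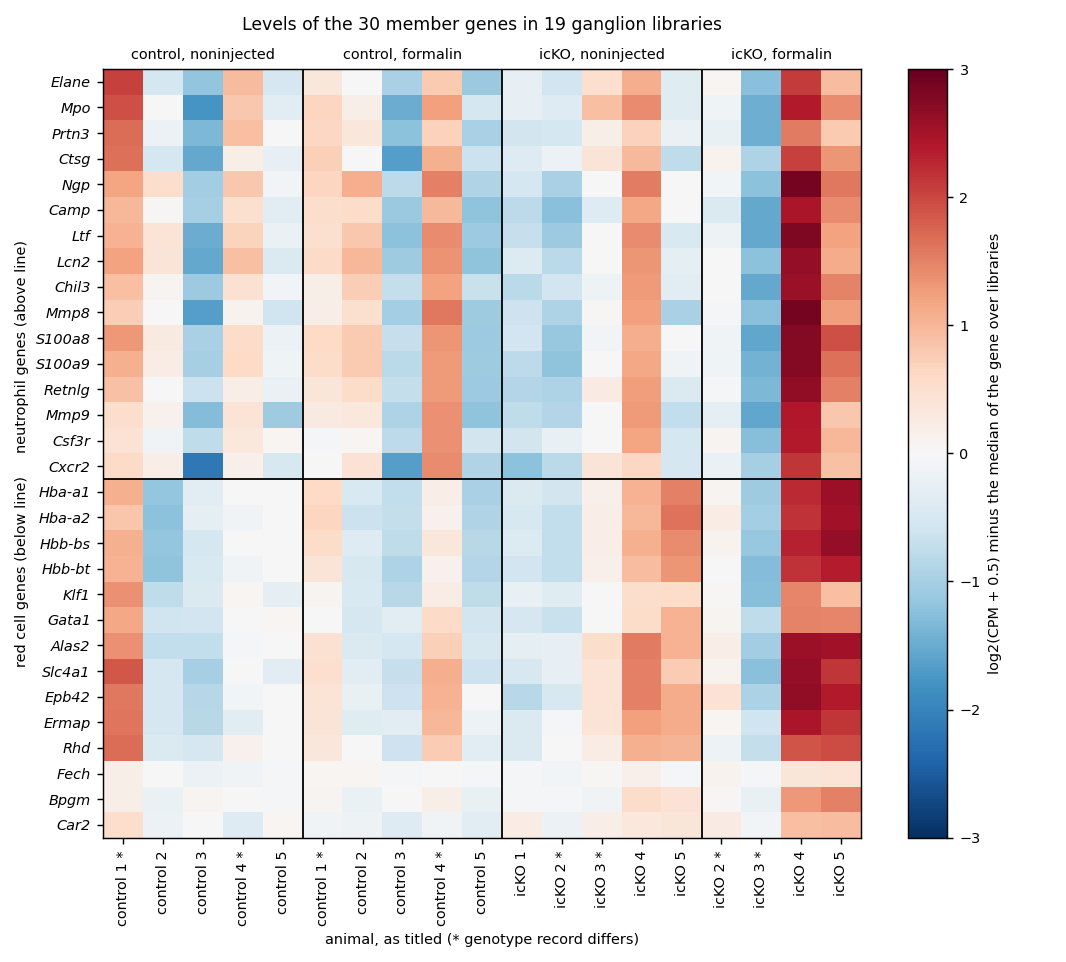
Colour gives log2(CPM + 0.5) of each member gene (rows) in each library (columns) minus the gene's median over the 19 libraries, with libraries grouped by label. The icKO 4 and icKO 5 formalin columns are red in nearly all rows, and icKO 3 formalin is blue. Fech is pale throughout, and Bpgm and Car2 are pale outside the icKO 4 and icKO 5 formalin columns.

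The primary granule genes, which mark early neutrophil precursors, were present in every library. Elane, neutrophil elastase, was at 26.06, 3.932, 2.331, 11.82 and 4.058 CPM in noninjected control 1 to 5 and at 4.94, 3.82, 8.593, 13.25 and 4.508 CPM in noninjected icKO 1 to 5. With formalin it was at 7.58, 5.928, 2.759, 10.5 and 2.464 CPM in control 1 to 5 and at 6.153, 2.184, 26.82 and 11.67 CPM in icKO 2 to 5. The noninjected control 1 and the formalin icKO 4 libraries were thus nearly equal and more than 4 times the median of 5.928 CPM, and the labelled groups overlapped. Mpo, myeloperoxidase, ran from 3.423 CPM (control 3 noninjected) over a median of 12.86 to 68.72 CPM (icKO 4 formalin), with control 1 noninjected next at 50.16 CPM. Prtn3, proteinase 3, was highest in control 1 noninjected (21.46 CPM) and Ctsg, cathepsin G, in icKO 4 formalin (11.64 CPM). The sum of the 4 genes ran from 8.449 to 126.8 CPM, a 15.01-fold range.

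The later granule genes were more abundant in sum, and icKO 4 formalin was again the highest library. Ngp, neutrophilic granule protein, ran from 33.26 CPM (icKO 3 formalin) over a median of 79.09 to 581.2 CPM (icKO 4 formalin). Ltf, lactoferrin, ran from 24.82 to 518.7 CPM and Camp, cathelicidin, from 13.65 to 221.1 CPM between the same libraries. The summed level of the 6 genes ran from 96.52 to 1740 CPM, and the second highest library was the noninjected one of the same animal, icKO 4, at 677.4 CPM.

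Among genes of mature neutrophils, S100a8, a subunit of the calcium-binding protein calprotectin, was at 266.5, 129.2, 54.92, 157.4 and 95.2 CPM in noninjected control 1 to 5. In noninjected icKO 1 to 5 it was at 71.79, 49.02, 102.5, 230.9 and 107.9 CPM. With formalin it was at 162.5, 186.4, 66.22, 269.1 and 50.41 CPM in control 1 to 5 and at 99.7, 36.44, 728.6 and 416.6 CPM in icKO 2 to 5. The formalin group labelled icKO thus held both the lowest and the 2 highest libraries of all 19. The lowest, icKO 3 formalin, is control by its deposited name. S100a9, its partner, reached 1097 CPM and Retnlg, a resistin-like secreted protein, 118.3 CPM, both in icKO 4 formalin. The receptors Csf3r (for the growth factor G-CSF) and Cxcr2 (for chemokines that draw neutrophils to tissue) reached 53.74 and 21.85 CPM there, and Mmp9, a granule gelatinase, 116.1 CPM. The sum of the 6 genes ran from 117.2 to 2136 CPM, an 18.23-fold range.

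The globins, which form haemoglobin, had another library on top. Hba-a1 was at 83.42, 17.6, 31.32, 39.21 and 39.83 CPM in noninjected control 1 to 5 and at 29.24, 27.25, 44.08, 82.63 and 115 CPM in noninjected icKO 1 to 5. With formalin it was at 60.06, 28.85, 23.63, 45.9 and 20.05 CPM in control 1 to 5 and at 42.12, 18.82, 190.8 and 238 CPM in icKO 2 to 5. Both libraries of icKO 5 exceeded those of icKO 4 here, the reverse of S100a8. Hbb-bs ran from 65.84 to 925.6 CPM between the same libraries as Hba-a1, control 2 noninjected and icKO 5 formalin. Hba-a1 took 60.19% to 65.95% of the alpha globin counts and Hbb-bs 78.05% to 81.75% of the beta globin counts, while the sum of the 4 genes ran 13.66-fold, from 110.5 to 1509 CPM. The alpha share is a split of counts between near-identical copies, so how much of each gene's RNA it reflects was not tested. Embryonic globins (Hba-x, Hbb-y and Hbb-bh1) summed to at most 0.9361 CPM in any library.

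Klf1, the erythroid factor that drives adult beta globin, was at 5.786, 0.9361, 1.311, 2.017 and 1.498 CPM in noninjected control 1 to 5. It was at 1.594, 1.401, 1.929, 3.02 and 3.087 CPM in noninjected icKO 1 to 5. With formalin it was at 2.071, 1.265, 0.8623, 2.312 and 0.9324 CPM in control 1 to 5 and at 2.001, 0.4965, 6.205 and 4.01 CPM in icKO 2 to 5. As for Elane, icKO 4 formalin and control 1 noninjected were the highest, and 10 to 121 counts stand behind these values. Gata1, the factor at the head of the erythroid programme, was highest in both formalin libraries of icKO 4 and icKO 5 (4.051 and 3.958 CPM). Alas2, the first enzyme of erythroid haem synthesis, ran from 7.497 to 96.92 CPM. The membrane genes Slc4a1 (the anion exchanger band 3), Epb42, Ermap and Rhd peaked in the same pair, at 153.9, 17.85 and 24.87 CPM in icKO 4 formalin and, for Rhd, 12.13 CPM in icKO 5 formalin.

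**Figure D2:**
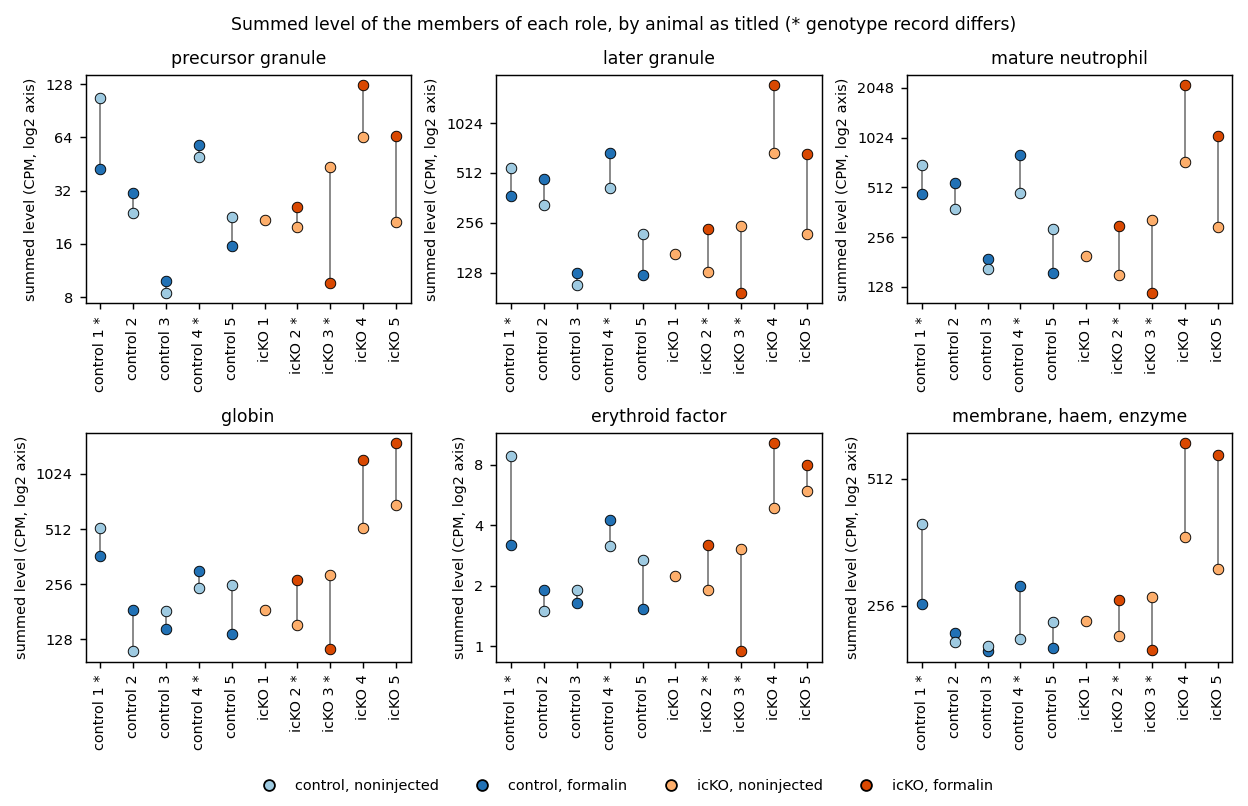
Each panel gives the summed level of the members of a role in CPM (log2 axis), with the noninjected and the formalin library of an animal joined by a line. Formalin lies above noninjected in control 2, control 4, icKO 2, icKO 4 and icKO 5 in all 6 panels. It lies below noninjected in control 1, control 5 and icKO 3 in all 6, and control 3 is mixed.

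Precursor genes were set against mature-cell genes within each library, the comparison that marrow and blood would differ in. The primary granule sum was 5.179% (control 3 noninjected) to 15.3% (control 1 noninjected) of the mature neutrophil sum, with a median of 8.178%, so the share varied 2.955-fold where the sums themselves varied 15.01-fold and 18.23-fold. In icKO 4 and icKO 5 formalin, the libraries with most neutrophil transcript, it was 5.938% and 6.174%, below the median, and in their noninjected libraries 8.844% and 7.168%. The later granule sum was 63.77% to 93.35% of the mature sum. For red cells, Klf1 and Gata1 summed to 0.5279% (icKO 5 formalin) to 1.699% (control 1 noninjected) of the globin sum, with a median of 1.063%. The globin sum was 29.26% (control 2 noninjected) to 233.4% (icKO 5 noninjected) of the mature neutrophil sum, a 7.977-fold spread, so the balance of red cell to neutrophil transcript varied more than the balance of precursor to mature transcript within either lineage. No marrow or blood sample is among these libraries, so which of them the transcripts came from was not tested.

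**Figure D3:**
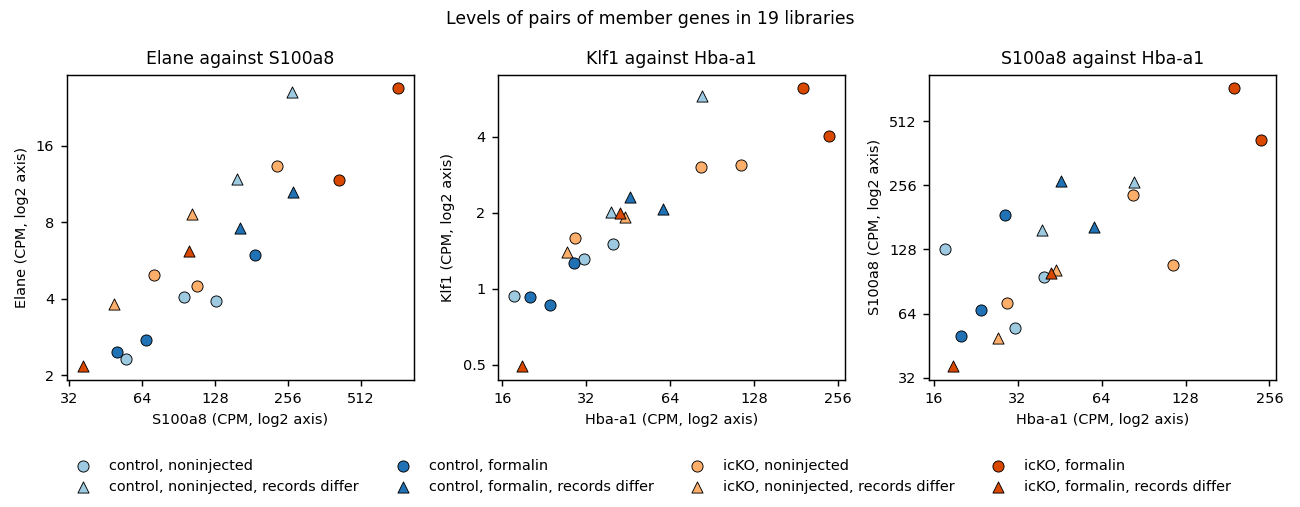
Points are the 19 libraries, with levels in CPM on log2 axes: Elane against S100a8, Klf1 against Hba-a1 and S100a8 against Hba-a1. The first 2 panels rise along a line, with control 1 noninjected above it (26.06 CPM Elane and 5.786 CPM Klf1), and in the third control 2 and icKO 5 noninjected lie to either side.

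Across animals the level of the precursor gene of a lineage was correlated with that of the mature gene. Both genotypes were pooled in each correlation, so any difference between genotypes enters it. On log2(CPM + 0.5), Elane and S100a8 correlated at r = 0.86 (rho = 0.81, permutation p = 0.0011 and 0.0075) over the 10 noninjected libraries. Over the 9 formalin libraries r was 0.97 (rho = 0.95, permutation p = 2.2e-05 and 0.00035). Klf1 and Hba-a1 correlated at 0.88 and 0.95 (rho = 0.88 and 0.95, permutation p of r 0.00054 and 0.00021, of rho 0.0016 and 0.00035). Cxcr2 and S100a8, both of mature cells, correlated at 0.84 and 0.93 (rho = 0.84 and 0.93, permutation p of r 0.002 and 0.0005, of rho 0.0038 and 0.00075). Between lineages, Klf1 and Elane correlated at 0.81 and 0.97 (rho = 0.84 and 0.98, permutation p of r 0.0045 and 5.5e-06, of rho 0.0041 and 5e-05). S100a8 and Hba-a1 correlated at 0.55 and 0.89 (rho = 0.54 and 0.90, permutation p of r 0.098 and 0.00096, of rho 0.11 and 0.002). Vpreb1, a gene of marrow B cell precursors at no more than 13 counts, correlated with Elane at -0.22 and 0.69 (rho = -0.27 and 0.80, permutation p of r 0.55 and 0.037, of rho 0.44 and 0.014). After Benjamini-Hochberg adjustment over these 12 relations, 10 had p of r under 0.05, the exceptions being S100a8 with Hba-a1 (0.11) and Vpreb1 with Elane (0.55) in noninjected libraries. Leaving out the 2 libraries farthest from the median of the second-named gene gave r of 0.67, 0.79 and 0.90 in noninjected and 0.95, 0.89 and 0.94 in formalin libraries for Elane with S100a8, Cxcr2 with S100a8 and Klf1 with Hba-a1. It gave 0.44 and 0.92 for Klf1 with Elane, 0.93 and 0.80 for S100a8 with Hba-a1, and -0.00 and 0.64 for Vpreb1 with Elane. Without control 1 and icKO 4 the noninjected relation of Elane with S100a8 no longer passed (permutation adjusted p = 0.085 for r and 0.13 for rho). Without the same libraries Klf1 with Elane lost r (adjusted p = 0.3) and kept rho (0.79, adjusted p = 0.048), and Cxcr2 with S100a8 kept r (0.033) and lost rho (0.71, adjusted p = 0.077), by permutation. Without control 2 and icKO 5 the noninjected relation of S100a8 with Hba-a1 passed (adjusted p = 0.0071 for r and 0.02 for rho, by permutation). In formalin libraries that relation no longer passed without icKO 4 and icKO 5 (permutation adjusted p = 0.069 for r and 0.051 for rho). Nor did Vpreb1 with Elane without icKO 3 and icKO 4 (0.13 and 0.08, by permutation). Leaving out 2 libraries leaves 8 or 7 over a narrower range, so a lost call does not show that a relation rests on them.

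With formalin, icKO animals whose records agree had higher levels of red cell genes than controls. All 14 red cell members rose, and of the 16 neutrophil members Elane alone passed, with an adjusted p of 0.04998 (edgeR quasi-likelihood test, Benjamini-Hochberg, threshold 0.05). With RLE size factors Elane was not called (adjusted p = 0.0505), which left 0 neutrophil members. Over all 17669 genes tested, 6.33% were called higher and 2.81% lower. This comparison sets icKO 4 and icKO 5, both males, against control 2, a female, and control 3 and 5, males, with sex as a covariate. The fit took the noninjected and formalin libraries of all agreeing animals, icKO 1 noninjected among them, with a shared spread and no term for the animal. Both libraries of an animal thus counted as independent. Among enzymes, Car2 was at 138.8 and 140.6 CPM in icKO 4 and 5 and at 66.39, 56.48 and 59.74 CPM in control 2, 3 and 5 (log2 fold 1.18, SE 0.11, adjusted p = 0.000222). Bpgm was at 64.77 and 75 CPM against 22.37, 25.78 and 21.91 CPM (log2 fold 1.49, SE 0.13, adjusted p = 0.000222). The groups did not overlap for either gene. Klf1 rose by a log2 fold of 2.18 (SE 0.34, adjusted p = 0.00396), Gata1 by 2.29 (SE 0.41, adjusted p = 0.00651) and Hba-a1 by 2.84 (SE 0.47, adjusted p = 0.0142). Ermap, Alas2 and Rhd rose by 2.50, 2.84 and 2.29 (SE 0.35, 0.38 and 0.39), and Hba-a2 by 2.81 (SE 0.44). Elane had a log2 fold of 2.48 (SE 0.64), and S100a8 a log2 fold of 2.83 (SE 0.77, adjusted p = 0.0714).

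The folds of the neutrophil members were as large as those of the red cell members, with larger errors. Their median log2 fold was 2.66 with a median SE of 0.85, against 2.62 and 0.40 for the red cell members, where the median over all genes was -0.0014. In all 30 members both icKO formalin libraries were above all 3 control formalin libraries, which held for 22.4% of 17410 genes with a mean of at least 0.5 CPM, and all 30 had an unadjusted p under 0.05, as did 26.8% of all genes. Whether the neutrophil and red cell members differ in response was not tested. DESeq2 called 15 of 16 neutrophil and 14 of 14 red cell members higher, and 7.98% of all genes. The calls rest on few libraries: without the icKO 5 formalin library 0 neutrophil and 8 red cell members were called (4.46% of all genes higher), and without the icKO 4 formalin library 0 and 13 (9.91%). Without the animal control 3 the counts were 0 and 4 (1.17%), without control 5 0 and 2 (0.514%), and without icKO 1 they were 9 and 14 (6.77%).

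By deposited name, which sets control 1, control 4, icKO 4 and icKO 5 against 5 libraries, 14 members were called higher with formalin, 9 of the red cell and 5 of the neutrophil lineage (2.85% of all genes higher, 1.04% lower). S100a8 then had 162.5 to 728.6 CPM against 36.44 to 186.4 CPM (log2 fold 2.24, SE 0.59, adjusted p = 0.0482), with overlap at control 2. Hba-a1 had 45.9 to 238 CPM against 18.82 to 42.12 CPM (log2 fold 2.13, SE 0.54, adjusted p = 0.0416), Klf1 a log2 fold of 1.73 (SE 0.44, adjusted p = 0.0386) and Elane 2.10 (SE 0.57, adjusted p = 0.0513). The groups did not overlap for 13 members, Elane, Hba-a1 and Klf1 among them, against 3.27% of genes. As labelled, with 4 against 5 libraries, Car2 alone did not overlap (0.649% of genes).

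**Figure D4:**
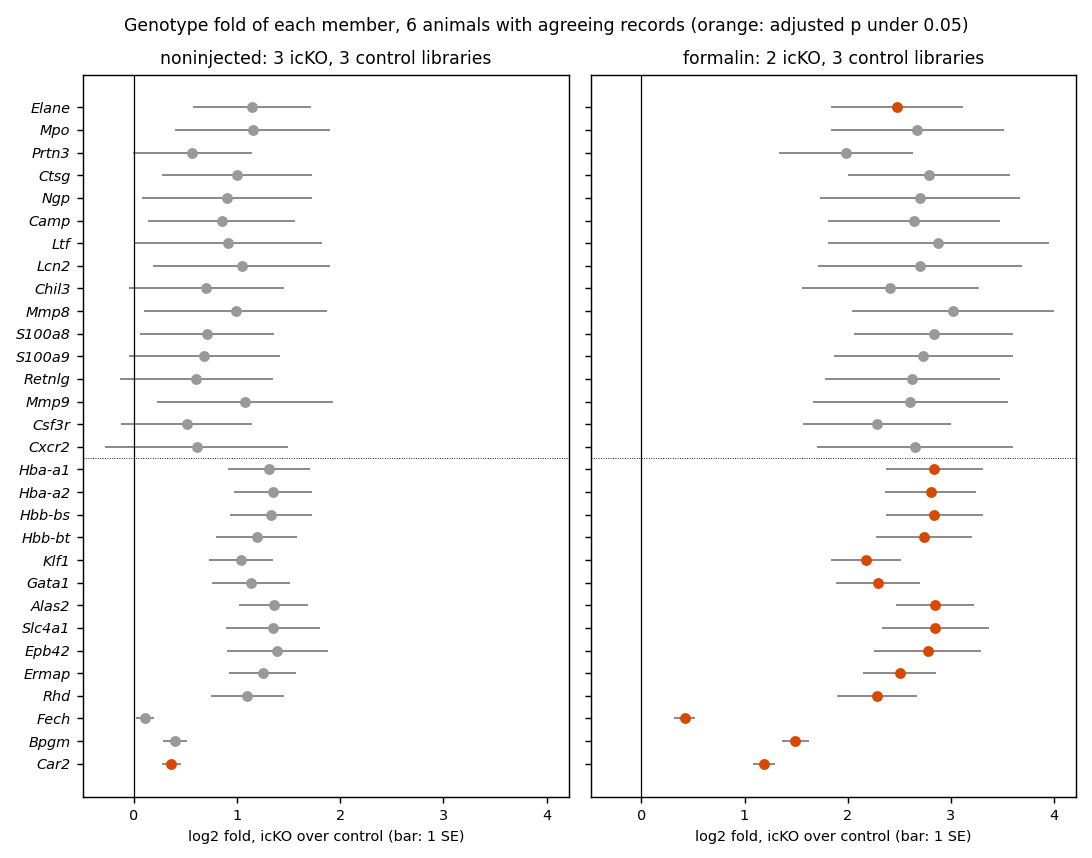
Points are log2 folds of icKO over control for each member in the 6 agreeing animals, noninjected on the left and formalin on the right, with bars of 1 SE and orange for an adjusted p under 0.05. All 30 points lie right of 0 in both panels, and 1 member passed without formalin and 15 with it.

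Without injection, fewer members were called in the same animals and the same fit. Car2 alone was called, at 86.61, 92.61 and 96.14 CPM in icKO 1, 4 and 5 against 65.15, 74.22 and 77.1 CPM in control 2, 3 and 5 (log2 fold 0.36, SE 0.09, adjusted p = 0.046). Over all genes, 3.83% were called higher and 0.877% lower. The groups did not overlap for 3 of 30 members (Car2, Elane and Klf1), a smaller share than the 14.8% of genes. By deposited name this held for 0 of 30 members, against 4.86% of genes. Hba-a1 had a log2 fold of 1.31 (SE 0.40, adjusted p = 0.108), Klf1 1.04 (SE 0.31, adjusted p = 0.0705), Elane 1.15 (SE 0.57, adjusted p = 0.272) and S100a8 0.71 (SE 0.65, adjusted p = 0.563). The median log2 fold was 1.22 for red cell and 0.88 for neutrophil members, all 30 folds were above 0, and 13 had an unadjusted p under 0.05, as did 23.2% of all genes. The neutrophil direction rests on icKO 4: without that animal the neutrophil median was -0.11 with 7 of 16 folds above 0, and the red cell median 1.05 with 14 of 14, and 1 member was called (8.95% of all genes higher). The Car2 call was lost with RLE size factors, where 0 members were called, and DESeq2 called 10 (6.6% of all genes higher). Without control 3, control 5 or icKO 5, 0 members were called, without control 2 there were 3 (0.0711% of all genes higher) and without icKO 1 there were 5 (0.311%). Without the formalin library of icKO 4 or that of icKO 5 there were 4, near the 8.6% and 8.66% of all genes then called higher. By deposited name 0 members were called by edgeR's test, where 4.81% of genes were called higher and 3.57% lower, and 13 members and 26.4% of genes had an unadjusted p under 0.05.

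The interaction, which asks whether the genotype fold differs between formalin and noninjected ganglia and uses the libraries of both comparisons above, passed for Bpgm and Car2. The fold of Bpgm was larger with formalin by 1.09 on the log2 scale (SE 0.17, adjusted p = 0.0362) and that of Car2 by 0.82 (SE 0.14, adjusted p = 0.0391), where 0.232% of genes were called higher and 0.136% lower. S100a8 had 2.12 (SE 0.95, adjusted p = 0.223), Hba-a1 1.53 (SE 0.60, adjusted p = 0.174), Elane 1.33 (SE 0.84, adjusted p = 0.354) and Klf1 1.14 (SE 0.46, adjusted p = 0.156). With the animal as a replicate block, which compares the 2 libraries within each animal, 10 members passed, 6 neutrophil and 4 red cell, where 4.23% of genes were called higher. Without control 2, 3 or 5 or icKO 1, 0 passed, and without icKO 4, 6, where 8.09% of genes were called higher. By deposited name 0 passed (1 at an unadjusted p under 0.05, against 23.4% of genes).

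Counts were then summed over the used libraries of each animal, and icKO 1 entered all animal totals with its noninjected library alone. By edgeR's test genotype gave 1 member past the threshold in the 6 agreeing animals, Car2 (log2 fold 0.69, SE 0.10, adjusted p = 0.0364). Over all genes, 0.572% were higher and 0.325% lower. S100a8 had a log2 fold of 1.51 (SE 1.08), Elane 1.64 (SE 0.66), Hba-a1 1.86 (SE 0.50) and Klf1 1.4965 (SE 0.31), with adjusted p of 0.508, 0.274, 0.174 and 0.0788. The median over members was 1.55 on the log2 scale, against -0.0041 over all genes, 11 members had an unadjusted p under 0.05 (19.1% of all genes) and DESeq2 called 11 (3.85% of all genes higher). Without control 2 or without icKO 1, 13 members were called (2.22% and 2.5% of all genes higher). Without control 3, control 5 or icKO 4, or the formalin library of icKO 4, 0 were called, and without the formalin library of icKO 5, 3, near the 5.4% of all genes then called higher. By deposited name 0 members were called, where 0.586% of genes were higher and 0.489% lower, and 20 had an unadjusted p under 0.05 (16.9% of genes), at a median log2 fold of 1.38.

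As labelled, with all 10 animals, 0 members and 0% of 19441 genes passed edgeR's test, and DESeq2 called 0 members. An unadjusted p under 0.05 was reached by 9.34% of genes and by 2 members, Bpgm (log2 fold 0.56, SE 0.19) and Car2 (0.49, SE 0.14), with adjusted p of 0.497 and 0.452. S100a8 had a log2 fold of 0.29 (SE 0.70), Elane 0.22 (SE 0.65), Hba-a1 0.91 (SE 0.60) and Klf1 0.45 (SE 0.48). The labelled groups mix animals at both Prdm12 levels, so these values do not measure the loss of Prdm12.

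Formalin, an irritant that causes inflammatory pain, gave no call among the members. Pooled over genotypes, 28 of 30 folds were above 0 with a median of 0.37 on the log2 scale, but 0 members passed edgeR's test, 0 had an unadjusted p under 0.05 (2.91% of all genes), and DESeq2 and limma-voom called 0, as did edgeR over all genes (0% higher, 0% lower). S100a8 had a log2 fold of 0.69 (SE 0.50) and Hba-a1 0.32 (SE 0.43), and the precursor genes Elane (-0.02, SE 0.52) and Klf1 (-0.10, SE 0.41) were the 2 members below 0. By deposited name 29 folds were above 0. In the agreeing animals alone all 30 were, with a median of 0.78, and 9 members and 10.5% of all genes had an unadjusted p under 0.05, with 0 members called. Within animals the direction was shared by nearly all members and differed between animals. Formalin minus noninjected was positive for 30 of 30 members in icKO 4 and icKO 5 (median log2 difference 1.18 and 1.38), for 29 in icKO 2 and control 2 (0.60 and 0.44) and for 28 in control 4 (0.67). It was positive for 0 of 30 in control 1 and icKO 3 (medians -0.65 and -1.33), for 1 in control 5 (-0.60) and for 18 in control 3 (0.20).

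Sex was compared over animal totals of 5 males and 5 females with labelled genotype as covariate. No member passed edgeR's test (1 at an unadjusted p under 0.05, against 12% of genes, and DESeq2 called 0), where 0.036% of genes were higher and 0.0206% lower in males. All 30 folds were above 0, with a median of 0.86 on the log2 scale. With genotype by deposited name as the covariate, 25 were above 0 and the median was 0.35. Bpgm had the smallest p (log2 fold 0.60, SE 0.19), and S100a8 had 0.89 (SE 0.70), Hba-a1 0.95 (SE 0.60), Klf1 0.41 (SE 0.48) and Elane 0.34 (SE 0.65).

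Genes of other marrow and blood lineages were read from lists chosen for this purpose. Over all genes, 6.33% were called higher with formalin in the agreeing animals and 2.85% by deposited name. In the formalin comparison of the agreeing animals, 7 of 17 further neutrophil genes rose, among them Gfi1, a factor of granulocyte precursors (log2 fold 2.97), and Wfdc21 (2.63). Of 21 further erythroid genes 14 rose, among them Epor, the erythropoietin receptor (2.48). All 8 proliferation genes rose, Mki67 by 2.48 and Top2a by 2.48. Of 6 tested genes of the list for marrow B cell precursors 3 rose, Pax5 by 2.49, Cd79b by 2.35 and Cd79a by 1.68. These 3 are also expressed in mature B cells, and no other gene of the list was called. The 4 eosinophil and basophil precursor genes gave 0 calls at a median of 2.64, with Prg2, eosinophil major basic protein, at 40.51 CPM in icKO 4 formalin against a median of 8.349 CPM over libraries. Of 10 monocyte and macrophage genes 3 rose (Ly6c2, Ccr2 and F13a1), 1 of 5 T and NK cell genes (Cd3d), and 0 of 5 megakaryocyte and platelet genes. The 7 sensory neuron genes gave 0 calls at a median of -0.22, and Glul alone of 7 glial genes rose (0.50). By deposited name 9 further neutrophil, 7 further erythroid and 7 proliferation genes rose, and 4 of the B cell list (Cd79a, Cd79b, Pax5 and Vpreb3). Of the eosinophil and basophil precursor genes Epx (2.92) and Prg2 (2.69) then rose, and of the monocyte and macrophage genes Ccr2 alone, while the T and NK cell, megakaryocyte, sensory neuron and glial lists gave 0 calls.

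Markers of other tissues moved in some of the same libraries. The 7 skeletal muscle genes, all counted in every library, summed to 1861 CPM in icKO 5 formalin and 304.8 CPM in control 4 formalin, against a median of 20.22 CPM and 29.9 CPM in icKO 4 formalin, so the library with most neutrophil transcript held far less muscle transcript than either. In the formalin comparison of the agreeing animals 0 muscle genes were called at a median log2 fold of 5.77, and by deposited name Myh4 (5.29), Mylpf (4.28) and Tnni2 (4.53) rose. The 8 proliferation genes summed to 207.4 and 140.9 CPM in icKO 4 and icKO 5 formalin and to 119.9 CPM in control 1 noninjected, against a median of 45.37 CPM. Rag1 and Dntt, which act in lymphocyte precursors, were highest in icKO 4 formalin, at 4.462 and 1.436 CPM against medians of 0.7932 and 0.2185 CPM. Both were counted in every library, with lowest counts of 2 and 1. Of the same B cell list, Vpreb3, Igll1, Pax5, Cd79a and Cd79b also peaked there. Vpreb1 and Rag2 peaked in icKO 5 formalin and had counts in 16 and 11 of 19 libraries. Ebf1 was highest in icKO 1 noninjected and ran from 138.8 to 183.6 CPM. Adipocyte genes were highest in noninjected icKO 1 and icKO 2 (118.4 and 116.4 CPM), which were not among the libraries with most neutrophil or globin transcript. The 7 bone and cartilage genes summed to 20.98 to 34 CPM, and of the 5 tested Ibsp, bone sialoprotein, rose in the formalin comparison of the agreeing animals (0.82), with 0 calls by deposited name. The 4 endothelial genes summed to 50.55 to 138.1 CPM, with 0 calls in both. The part of these cell types in the members' levels was not tested.

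Among the 10 genes whose levels ran most like S100a8 over the 19 libraries, out of 14196 compared, were Pglyrp1 (r = 0.987), Wfdc21 (0.987), Ly6g (0.981), Ifitm6 (0.975), Ncf1 (0.973), B430306N03Rik (0.972), I830127L07Rik (0.968), Mcemp1 (0.966) and Slfn4 (0.959). Ly6g is the surface antigen used to sort mouse neutrophils and Ncf1 a subunit of their NADPH oxidase. Among the 10 most like Hba-a1 were Cdca3 (0.953), Hemgn (0.939), Tent5c (0.930), Trim10 (0.929), Asf1b (0.928), Ube2c (0.926), Galnt1 (0.925) and Cdk1 (0.916), of which Cdca3, Asf1b, Ube2c and Cdk1 act in cell division. Among members, the precursor genes followed S100a8 less closely (Elane 0.890, Mpo 0.899, Prtn3 0.906 and Ctsg 0.868) than did the later granule genes (0.948 for Mmp8 to 0.990 for Camp), as a description with no test. The mature-cell receptors Cxcr2 (0.898) and Csf3r (0.912) also followed it less closely, so this is not particular to precursor genes. These correlations share the same libraries, animals and depth.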

How the data were processed

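Raw read counts per Ensembl gene were deposited by the authors, 1 file for each of 20 libraries. The submitters' processing notes name the GRCm39 build with featureCounts 2.0.1, STAR 2.7.8a and bcl2fastq 2.20.0.422, and the labels' protocols give a kit that does not mark strand. The annotation release was not given in the sources used here, nor the treatment of reads with several matches. Members were matched by symbol through a name table that covers 94.0% of IDs. Of the 20 libraries, 19 exceeded 1e+06 counts. The test was edgeR's (4.0.16, R 4.3.3) robust quasi-likelihood F test with TMM factors, filterByExpr and a sex term, adjusted by Benjamini-Hochberg over all genes, with DESeq2 1.42.0 and limma 3.58.1 (voom) as alternatives, and all 30 members passed the filter in every fit. Standard errors come from the fold and the F statistic. The procedure was tested on simulated data. In these the spread was capped and libraries of an animal were drawn independently, so paired libraries and a wide spread between animals were not covered. Levels are TMM-scaled CPM, and exon lengths come from GENCODE M21. Libraries of a group come from separately numbered animals. Some genes outside the set are not reported here. No 2 libraries were identical, and within a group the chi-square per degree of freedom was 4.9 to 66.5.

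Groups follow the titles. Both libraries of an animal carry its number in the deposited names and so pair by animal, and over the 9 pairs, deviations from group means had correlations of -0.09 (icKO 3) to 0.49 (control 1). Folds with SE are given for up to 8 members past the threshold by smallest p, for the 2 smallest where none passed, and always for S100a8, Elane, Hba-a1 and Klf1. Members, lists and tests were chosen with earlier results of these data known. The comparisons with formalin, without it and of animal totals share libraries. The main fit of formalin pooled over genotypes also had no term for the animal.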

Additional observations from a re-analysis of the deposited data

Results flagged for a closer look

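The noninjected library labelled control 1 stood apart from the other 4 noninjected libraries labelled control, with a gap beyond Dixon's limit, in precursor and red cell membrane genes. Groups here follow the titles, and by deposited name control 1 is icKO. It held 8.707 CPM of Ctsg, 5.786 of Klf1, 3.09 of Gata1, 42.02 of Alas2, 88.87 of Slc4a1, 8.201 of Epb42, 13.76 of Ermap and 9.943 CPM of Rhd. Its erythroid factor sum was 8.875 CPM, where the others reached 3.143, and its membrane, haem and enzyme sum was 400.7 CPM, where the others reached 233.8.

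The noninjected library labelled icKO 4 stood apart from its group in later granule and mature genes. It held 229.8 CPM of Ngp, 196.6 of Ltf, 86.9 of Lcn2, 45.55 of Chil3, 27.35 of Mmp8, 53.01 of Mmp9 and 23.24 CPM of Csf3r, and its later granule sum was 677.4 CPM, where the others reached 246. The control 4 formalin library held 26.75 CPM of Csf3r, where the other formalin controls reached 10.51. In all, 19 of 144 group values passed the limit, where chance gives about 1 in 20, or 7.2, and members that move together are not independent. The title groups also mix animals at both Prdm12 levels, which that rate does not take into account.

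In the 6 agreeing animals the genotype fold differed between formalin and noninjected ganglia by a tested interaction for Bpgm (1.09 on the log2 scale) and Car2 (0.82). No member passed by deposited name, or without control 2, 3 or 5 or icKO 1.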

How the results depend on the processing

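Counts below are members past the threshold, of 30. Genotype in animal totals of the 6 agreeing animals (1) gave 11 with DESeq2, 5 with no filter, 0 with no sex term, 0 by deposited name, 3 and 0 without the icKO 5 and icKO 4 formalin libraries, and 0 to 13 leaving out an animal. The noninjected comparison (1) gave 0 with RLE size factors, 10 with DESeq2, 25 with no filter, 0 by deposited name, 4 and 4 without those libraries, 6 from the 2 groups alone, and 0 to 5 leaving out an animal. The formalin comparison (15) gave 29 with DESeq2, 30 with no filter, 8 without icKO 5 formalin, 25 from the 2 groups alone and 2 (without control 5) to 23 (without icKO 1) leaving out an animal, and Bpgm passed in all 14 alternatives. The interaction (2) gave 27 with no filter, 0 by deposited name, 10 with the animal as a replicate block and 0 to 6 leaving out an animal. All animals by label, formalin and sex (0 each) gave 15, 16 and 24 with no filter and 0 otherwise, also with a replicate block by title number (labels) or by animal (formalin). Of 36444 genes, the unfiltered fits called 1369 higher for animal totals, 1430 noninjected, 2303 with formalin and 1665 for the interaction. By label, for formalin and for sex they called 651, 125 and 906 of 39085 higher. The fits of the 2 groups alone called 1107 of 17008 genes higher noninjected and 843 of 18091 with formalin. The unfiltered fits had an infinite prior degree of freedom, which gives all genes the spread of the trend. A block by title number could not be fitted for the agreeing animals, which share number 5 alone.

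Signs of named folds turned as follows. By label over all animals (S100a8 0.29, Elane 0.22), S100a8 was -0.06 without the icKO 4 formalin library and -0.08, -0.05 and -0.20 without control 3, control 5 and icKO 4, and Elane was -0.06, -0.07, -0.05 and -0.37. Leaving out any animal gave -0.20 to 0.62 for S100a8 and -0.37 to 0.91 for Elane. For formalin (Elane -0.02, Klf1 -0.10), Elane was 0.01 with no sex term, 0.07 by deposited name, 0.24 without control 1, 0.07 without icKO 2, 0.24 without icKO 3 and 0.74 in the agreeing animals, and Klf1 was 0.10, 0.11 and 0.30 without control 1, without icKO 3 and in the agreeing animals (leaving out any animal, -0.14 to 0.24 and -0.27 to 0.11). For sex (Elane 0.34), Elane was -0.17 with genotype by deposited name and -0.23 without icKO 4 (up to 1.05 without control 1). Without the 2 samples farthest from the median, r fell to 0.67 (Elane with S100a8) and 0.44 (Klf1 with Elane) in noninjected and to 0.80 (S100a8 with Hba-a1) and 0.64 (Vpreb1 with Elane) in formalin libraries and no longer passed the threshold, and was 0.93, past it, for S100a8 with Hba-a1 in noninjected libraries. A pseudocount of 0.1 changed no call among the 12 correlations, and RLE or no size factor moved no mean of a role sum by more than 1 SD. Beyond the fits' own construction, the cause of these changes was not tested. Counts of 5 to 10 for Ctsg, Gata1, Cxcr2 and Klf1 in the poorest libraries limit their precision.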
